A study of Homo sapiens with 6 samples.

Results

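The 4 HOX clusters were examined for open chromatin in RH30, a rhabdomyosarcoma cell line with the PAX3 and FOXO1 gene fusion, in cells with and without deletion of MyoD. The 38 HOX genes described here comprise 10 in HOXA on chromosome 7, 10 in HOXB on chromosome 17, 9 in HOXC on chromosome 12 and 9 in HOXD on chromosome 2. A region belonged to a cluster when the summit of its highest peak lay between the outermost ends of the cluster's genes or within 50 kb of them, and the 74 regions described here, of 105569, were taken by this rule. Of these 74 regions, 16 were in HOXA, 34 in HOXB, 14 in HOXC and 10 in HOXD, and 51 lay between the outermost ends. The last regions taken beyond the HOXB ends lay 44.8 and 40.5 kb away, and the first ones not taken lay 55.7 and 62.5 kb away. ATAC-seq, in which the Tn5 transposase inserts sequencing adapters into accessible DNA, had been performed on 3 vector and 3 MyoD-deleted libraries, labelled as biological replicates, and peaks had been called in each library. All cells had been transduced with Cas9, together with a non-targeting scramble guide in the vector cells or with guides against MyoD in the MyoD-deleted cells. The guide used for each MyoD-deleted library is not given in the sources used here. By the study's methods, cells infected with lentiviral guides were used directly once selected with antibiotic, and those from the plasmid route were grown as single clones, and the label for these libraries says that they were transduced. The study is divided on the cells, since its results text names RH30 with the IκBα super repressor, an inhibitor of NF-κB, and its ATAC-seq methods and the labels name RH30, so whether the transgene was present cannot be told.

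HOX genes encode homeodomain transcription factors that give cells along the body axis their position. In each cluster the genes lie in the order in which they are used along the axis, so that low-numbered paralogues such as HOXB1 are called anterior and high-numbered ones such as HOXB13 posterior. The clusters are rich in CpG dinucleotides, are held silent by Polycomb complexes and are kept active by Trithorax complexes, and HOX proteins bind DNA with PBX and MEIS cofactors. MyoD is the bHLH factor that starts skeletal muscle differentiation, and it binds the E box, with CAGCTG and CAGGTG as its usual forms.

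The sequence at 4 summits is given first, for the 2 HOXB regions whose calls held without any single library and for the highest gained and the lost region. Each is the plus strand of GRCh38 from 100 bases before the summit to 100 bases after it. Capitals mark the E boxes CAGCTG and CAGGTG or the AP-1 motif TGANTCA, on either strand, and the first sequence holds none of them.
HOXB9 5′ end, largest rise, chr17:48626597-48626797: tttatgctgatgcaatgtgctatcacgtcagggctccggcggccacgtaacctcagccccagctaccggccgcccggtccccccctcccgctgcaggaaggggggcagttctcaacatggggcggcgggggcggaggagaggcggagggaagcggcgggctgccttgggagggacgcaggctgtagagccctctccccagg
Downstream of HOXB2, higher, chr17:48539282-48539482: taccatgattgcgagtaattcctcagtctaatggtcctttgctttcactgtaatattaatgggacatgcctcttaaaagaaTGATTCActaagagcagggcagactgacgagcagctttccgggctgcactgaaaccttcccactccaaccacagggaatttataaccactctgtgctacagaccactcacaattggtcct
HOXC4 intron, strongest gained region, chr12:54036976-54037176: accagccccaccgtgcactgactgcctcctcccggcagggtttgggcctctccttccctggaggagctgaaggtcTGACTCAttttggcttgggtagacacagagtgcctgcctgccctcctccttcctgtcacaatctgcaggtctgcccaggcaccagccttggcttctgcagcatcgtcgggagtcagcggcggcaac
HOXC4 intron, lost region, chr12:54043490-54043690: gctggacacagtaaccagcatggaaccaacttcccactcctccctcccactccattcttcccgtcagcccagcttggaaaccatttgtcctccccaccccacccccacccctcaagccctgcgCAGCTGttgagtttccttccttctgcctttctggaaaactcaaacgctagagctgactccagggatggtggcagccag
The HOXB9 window is 69.7% G and C with 15 CpG dinucleotides. The other 3 windows hold 45.3%, 62.7% and 57.7% G and C, with 3, 6 and 3 CpG dinucleotides.

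The libraries had 63140 to 80608 peaks and gave 105569 merged regions, of which 47885 were called in all 6. The deposited values are those of peaks and not of reads, so the depth of a library is known only through its smallest background, which was 2.225 to 3.41 fragments in vector libraries and 2.268 to 2.346 in MyoD-deleted libraries. A region's height is given throughout as log2 of the pileup of fragments at its summit over that background, centred so that the median region of each library called in all 6 is 0. At the 5′ ends of 10 muscle and rhabdomyosarcoma genes, 9 had a region called in all 6 libraries, and 4 were lower in MyoD-deleted libraries, where 62.5% of all annotated 5′ ends had such a region and 3.14% of regions at 5′ ends were lower. Among the 4 was MYOD1 itself (a difference of −0.49 log2, adjusted p = 0.0021 from limma). The 5 epithelial marker genes had no region, 1 of 5 blood marker genes had a region in a single vector library, and 1 of 3 endothelial marker genes, TIE1, had a gained region.

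Open regions were dense in all 4 clusters. Between the outermost ends of the genes there were 9.9 regions per 100 kb, against 3.42 over the whole genome, and the regions covered 9.53% of HOXA, 10.54% of HOXB, 9.36% of HOXC and 6.68% of HOXD. In the 50 kb on either side the density was 5.8 per 100 kb. Of the 74 regions, 48 (64.9%) were called in all 6 libraries, against 45.4% of all regions. Another 4 were gained, that is called in 3 of 3 MyoD-deleted and 0 of 3 vector libraries, and 1 was lost, the reverse. The remaining 21 were called in 1 to 5 libraries in other patterns, 7 of them in a single library. There were more MyoD-deleted calls for 13, more vector calls for 6 and equal numbers for 2. The shares of these patterns over all regions are not given here, so the counts cannot be set against the genome. The MyoD-deleted libraries had 73745 to 80608 peaks, against 63140 to 74121 in vector libraries.

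**Figure D1:**
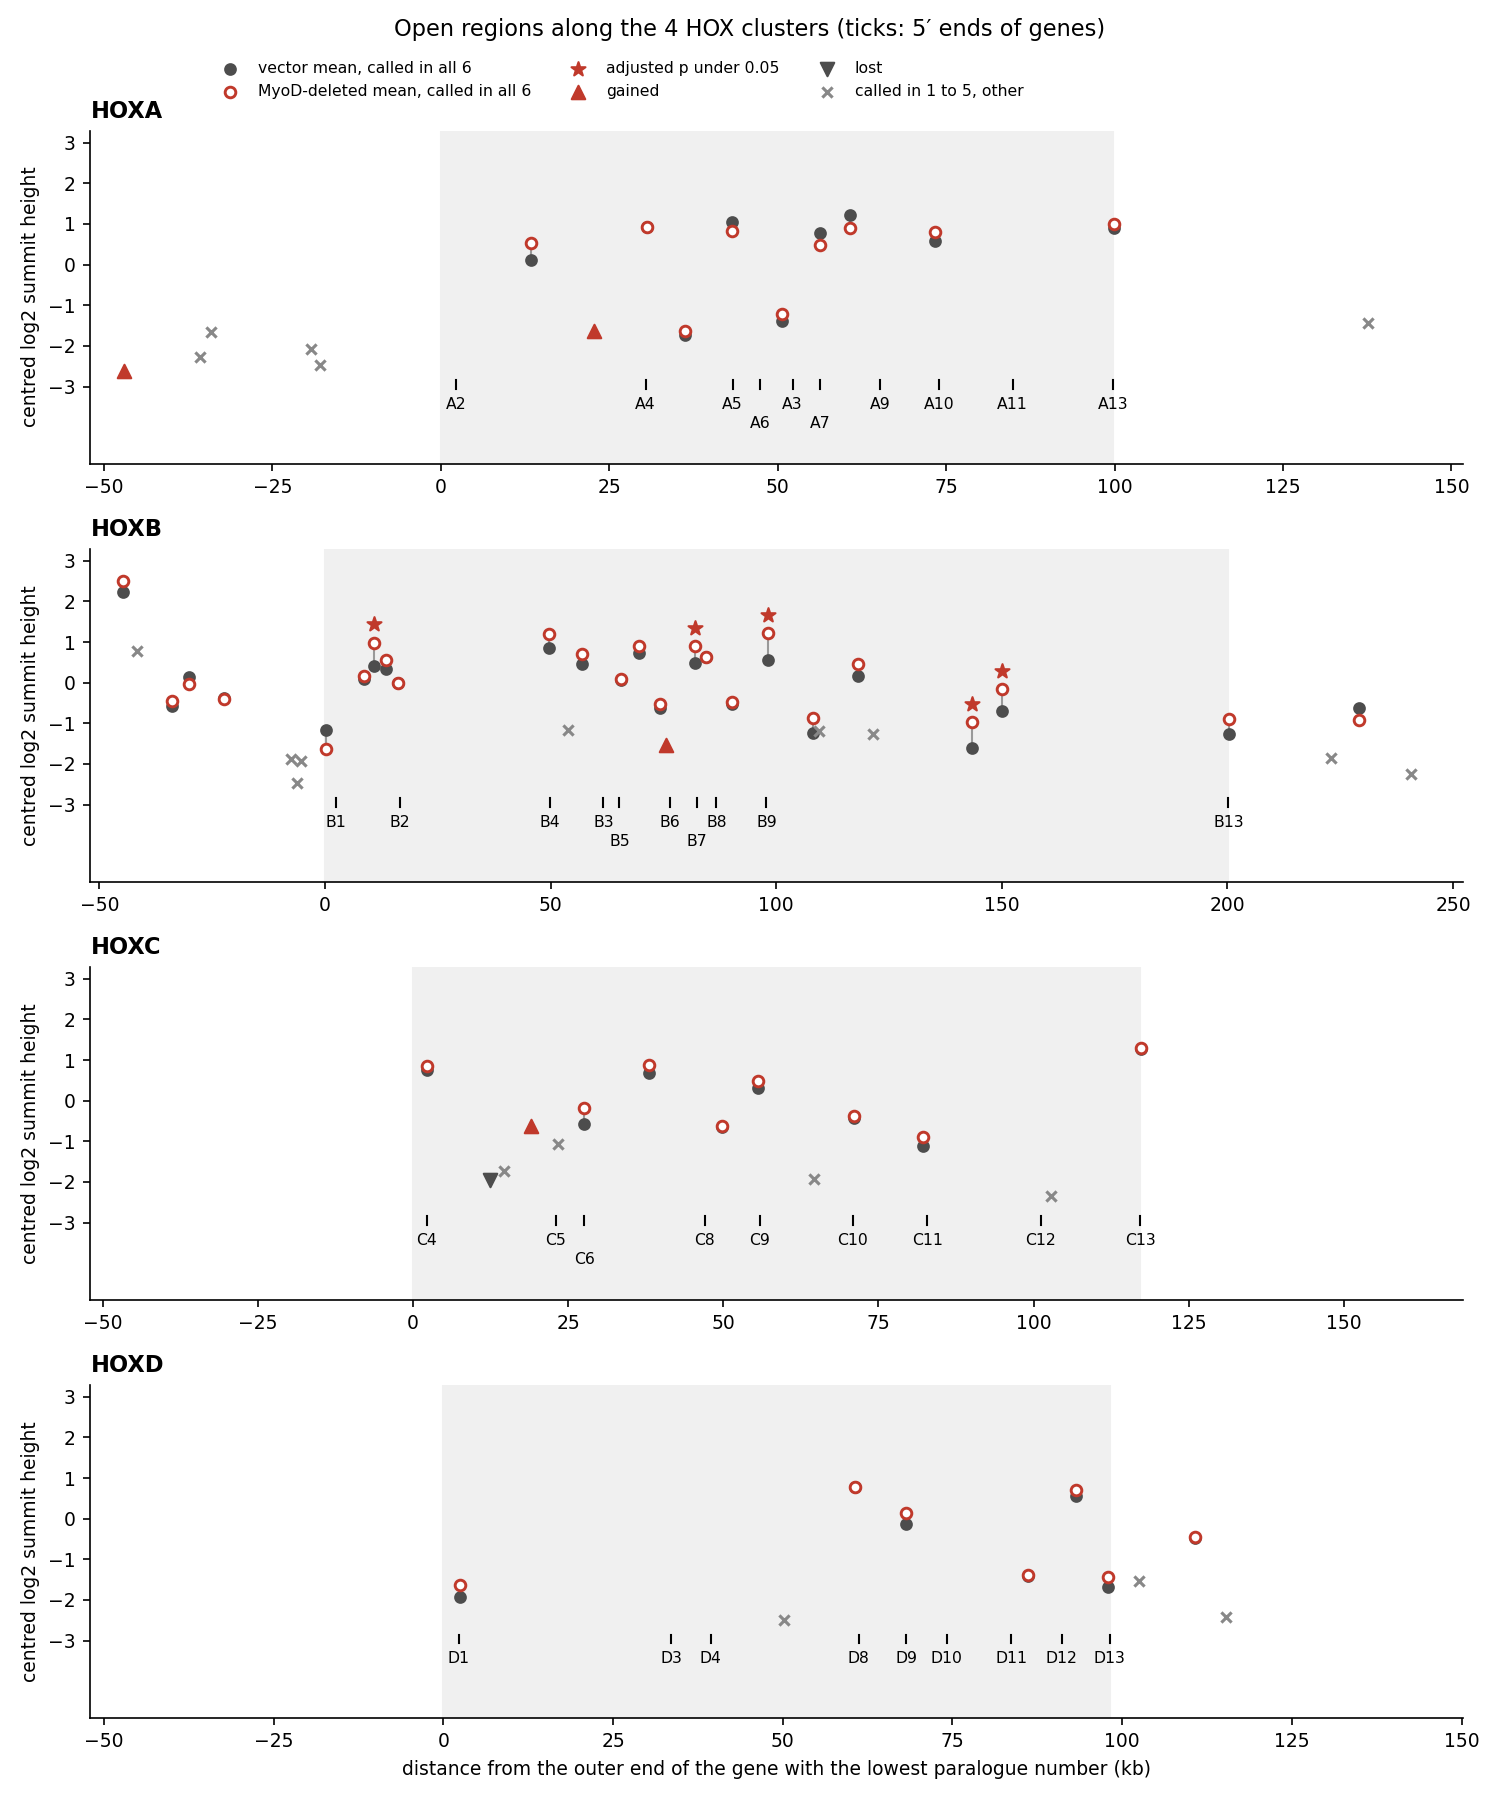
Centred log2 summit height of each HOX region (y axis) against its distance in kb from the outer end of the gene with the lowest paralogue number (x axis), 1 panel per cluster, with the span of the genes shaded. Filled and open circles are means of 3 vector and 3 MyoD-deleted libraries for the 48 regions called in all 6, and all 5 stars (adjusted p under 0.05) stand in HOXB between HOXB1 and HOXB13.

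The HOX regions were near the median of all regions in height, but low beside other 5′ ends and other CpG-rich regions. In vector libraries the 48 regions called in all 6 had a median height of 0.11, close to the 0 of the median region. The 21 of them at the 5′ ends of HOX genes had a median of 0.49, against 1.62 for the 11025 such regions within 1 kb of any gene's 5′ end. The 33 HOX regions with a CpG observed-to-expected ratio of at least 0.6 had a median of 0.16, against 1.62 for all 11572 such regions. The highest of the 48 lay outside the genes, at chr17:48483003-48485036, 47273 bases downstream of the HOXB1 5′ end in an intergenic stretch. Its heights were 2.41, 2.01 and 2.24 in vector and 2.47, 2.58 and 2.45 in MyoD-deleted libraries. The share of the regions called in a vector library that were no higher than it averaged 94.0% over the vector libraries. The groups did not overlap there, yet the difference of 0.28 ± 0.11 (SE) did not pass the test (adjusted p = 0.0612 from limma). Among the regions at or between the genes, the highest vector mean of each cluster was 1.27 ± 0.14 (SD, n = 3) at the 5′ end of HOXC13, 1.23 at an intergenic HOXA region 4393 bases upstream of HOXA7, 0.85 ± 0.29 at HOXB4 and 0.78 ± 0.06 at HOXD8.

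At their 5′ ends, 23 of the 38 HOX genes had a region within 1 kb. It was called in all 6 libraries for 21 genes (55.3%), against 62.5% of 19061 annotated 5′ ends, each of 1 representative transcript per gene. By position in the body axis these 21 were 5 of 11 anterior genes (paralogues 1 to 4), 6 of 11 central genes (5 to 8) and 10 of 16 posterior genes (9 to 13). By cluster they were 5 of 10 in HOXA, 6 of 10 in HOXB, 6 of 9 in HOXC and 4 of 9 in HOXD. HOXB6 had a gained region, and HOXC5 had one called in 3 vector libraries and 1 MyoD-deleted library. No region was called within 1 kb of this 5′ end of the other 15, which were HOXA2, HOXA3, HOXA6, HOXA9, HOXA11, HOXB1, HOXB3, HOXB8, HOXC8, HOXC12, HOXD3, HOXD4, HOXD10, HOXD11 and HOXD12. Other transcripts of a gene were not counted. HOXA6, HOXA9, HOXB3 and HOXD11 extend further upstream in the annotation, and their outermost 5′ ends lay within 1 kb of a region.

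**Figure D2:**
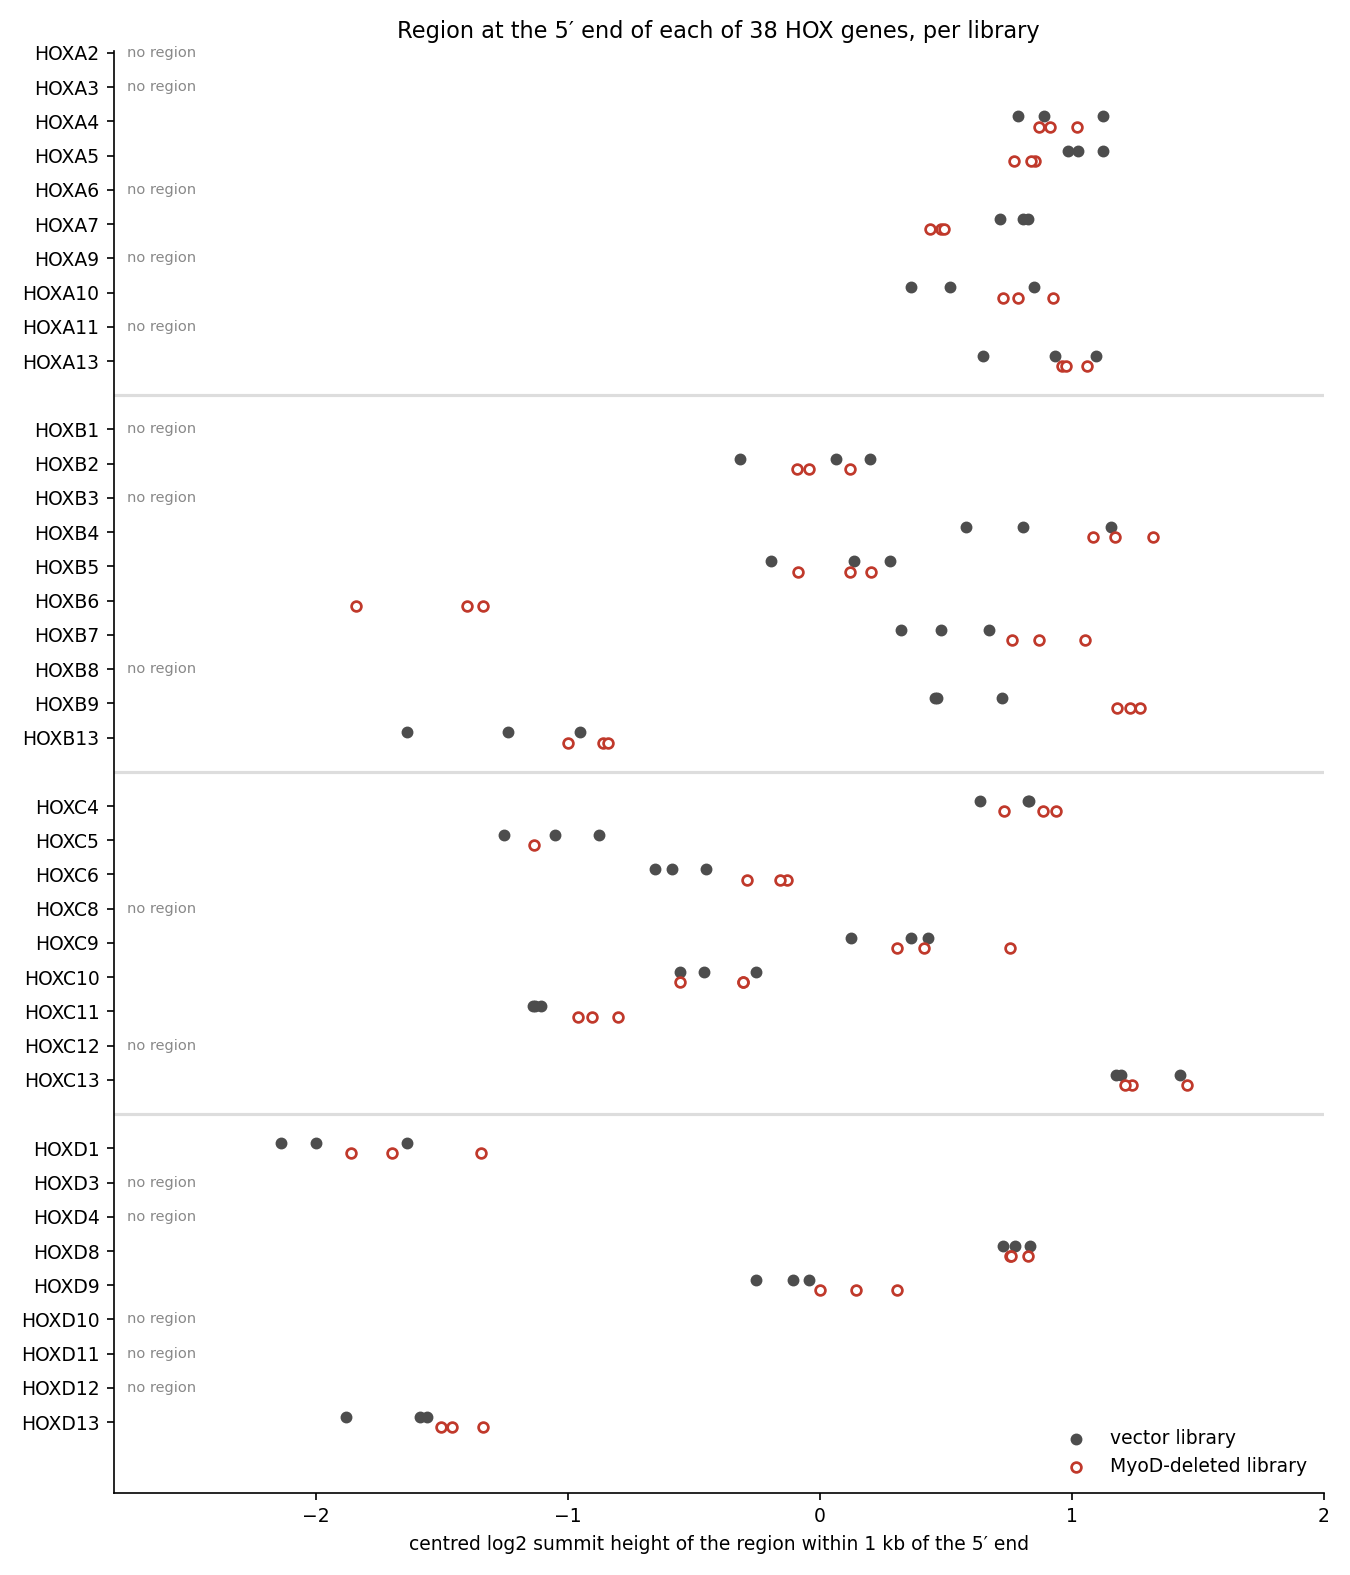
Centred log2 summit height (x axis) of regions lying within 1 kb of a 5′ end, for each of 38 HOX genes (y axis), with 1 filled point per vector library and 1 open point per MyoD-deleted library. For HOXB9 the open points, at 1.18 to 1.27, lie to the right of the filled points, at 0.46 to 0.72. At the 5′ end of the representative transcript, 15 genes have no region.

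Long stretches of the clusters held no region called in all 6 libraries. In HOXD such a stretch of 57.1 kb ran from beyond HOXD8 to HOXD1 and contained the 5′ ends of HOXD3 and HOXD4, with 1 weaker region in it, and another of 17.0 kb contained those of HOXD10 and HOXD11. In HOXB a stretch of 49.3 kb without any region lay before HOXB13, the posterior gene that stands apart from the rest of the cluster, and one of 32.6 kb separated HOXB2 from HOXB4. A HOXC stretch of 34.2 kb reached from HOXC13 to HOXC11 and contained the 5′ end of HOXC12. The stretch of 25.5 kb in HOXA lay between HOXA10 and HOXA13 around HOXA11. The clusters also encode microRNAs of the miR-10 and miR-196 families. None of their 5 hairpins lay within a region called in all 6 libraries, and the distance to the nearest one was 1.1 kb for MIR10A, 3.4 kb for MIR196B, 3.9 kb for MIR196A1, 6.3 kb for MIR196A2 and 19.4 kb for MIR10B.

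Heights at the 5′ ends differed widely between genes of 1 cluster. In HOXD, vector heights were 0.73, 0.84 and 0.78 at HOXD8 but −1.64, −2.00 and −2.14 at HOXD1 and −1.88, −1.56 and −1.59 at HOXD13, with HOXD9 between them at −0.25, −0.11 and −0.04. In HOXC, the posterior end gene HOXC13 and the anterior gene HOXC4 were the highest, at means of 1.27 and 0.76, and HOXC11 was the lowest at −1.13. In HOXA all 5 open 5′ ends had vector means between 0.58 and 1.05, the narrowest range of the 4 clusters. In HOXB they ran from 0.85 at HOXB4 down to −1.28 at HOXB13.

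The comparison of MyoD-deleted with vector libraries asked which parts of the clusters changed in accessibility when MyoD was deleted. Of the 48 HOX regions called in all 6 libraries, 5 (10.4%) were higher in MyoD-deleted libraries at an adjusted p under 0.05 from limma over 47885 regions, where 11.4% of all regions were higher. None was lower by that test, where 12.8% of all regions were lower, and 24.2% differed in either direction. At an unadjusted p under 0.05, 2 HOX regions were lower and 9 were higher by limma on heights, against 2 and 3 by limma on the rank of fold enrichment. The share of all regions at that unadjusted threshold is not given here, so these counts cannot be set against the genome. All 5 called regions lay in HOXB between HOXB1 and HOXB13, where they made up 27.8% of 18 regions. With the flanks counted they were 5 of 24 HOXB regions. Among the 21 regions at the 5′ ends of HOX genes 2 were higher, HOXB7 and HOXB9, and the lowest adjusted p of one with a difference below 0 was 0.0818, at HOXA7. Of the 11025 regions within 1 kb of any 5′ end, 3.53% were higher and 3.14% lower. With vector replicate 2 or MyoD-deleted replicate 1 left out, 2 of the 5 calls were left, those at HOXB9 and downstream of HOXB2. With vector replicate 1 left out, the intergenic HOXA region upstream of HOXA7 was lower (−0.43, adjusted p = 0.0119 from limma). In that fit the intergenic region 47273 bases downstream of the HOXB1 5′ end was higher (0.38, adjusted p = 0.00454 from limma). By the rank of fold enrichment, with all 6 libraries, the difference of this intergenic region was −0.255 (adjusted p = 0.314 from limma). The region chr7:27113175-27114504, in HOXA3, was higher without vector replicate 3 and without MyoD-deleted replicate 3. Its main difference was 0.405 ± 0.151 (SE, adjusted p = 0.0602 from limma), and the groups did not overlap. The HOXB4 region was also higher without vector replicate 3. Ranked by the fold enrichment over the local background, 1 of the 5 was called and 0 were lower, where 4.12% of all regions were higher and 4.67% lower. Without the centring 16 HOX regions were higher and 0 lower, where 24.7% and 8.03% of all regions were. Those 16 included the 5 main calls and were spread over HOXA, HOXB, HOXC and HOXD, so the confinement to HOXB depended on the centring.

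**Figure D3:**
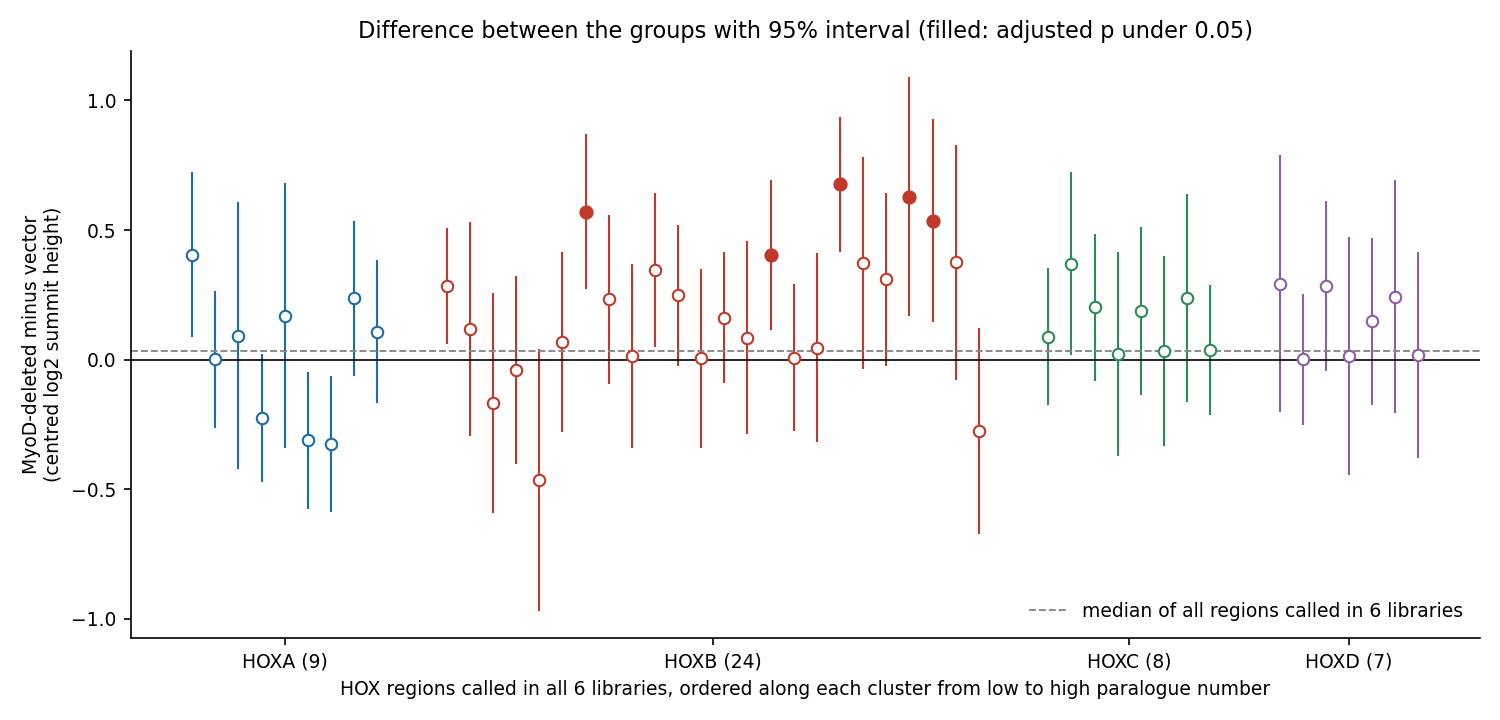
Difference in centred log2 summit height, MyoD-deleted minus vector (y axis), with its 95% interval from limma, for the 48 HOX regions called in all 6 libraries, ordered along each cluster (x axis). Filled points have an adjusted p under 0.05, all of them in HOXB, and the dashed line is the median of all 47885 regions, 0.035.

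HOXB9, a posterior gene, had the largest difference among the 48. Its region spanned chr17:48625152-48627064, with the summit 339 bases upstream of the 5′ end in the GC-rich window printed above. The pileup at the summit was 112, 77 and 109 fragments in vector and 140, 155 and 154 in MyoD-deleted libraries, and the heights were 0.47, 0.46 and 0.72 against 1.27, 1.23 and 1.18. Every MyoD-deleted library was above every vector library. The difference was 0.68 ± 0.12 (SE, 95% interval 0.42 to 0.94), or 1.60-fold, with an adjusted p of 0.000626 from limma. It passed in every fit that left out a library, with adjusted p between 0.000465 and 0.00667. By the rank of fold enrichment it did not pass (adjusted p = 0.394). The local background rose together with the summit there, from 5.63 to 8.10 times the library's smallest background.

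The second region called in every fit that left out a library was intergenic, at chr17:48539046-48539695, between HOXB1 and HOXB2 and 5727 bases downstream of the 5′ end of HOXB2, a hindbrain gene. Its heights were 0.59, 0.28 and 0.36 in vector and 0.94, 1.21 and 0.80 in MyoD-deleted libraries. The groups did not overlap, and the difference was 0.57 ± 0.14 (SE, adjusted p = 0.00664 from limma, and 0.309 by rank). Its AP-1 motif, in capitals in the sequence above, was centred 16 bases from the summit. The 2 regions next to it on the side of HOXB2 did not pass, with a difference of 0.23 (adjusted p = 0.318) inside HOXB2 and of 0.01 (adjusted p = 0.97) at the HOXB2 5′ end, both from limma.

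The other 3 calls depended on single libraries. At the 5′ end of HOXB7, a central gene, the region chr17:48610196-48612460 had heights of 0.48, 0.32 and 0.67 in vector and 0.87, 0.76 and 1.05 in MyoD-deleted libraries, a difference of 0.40 ± 0.14 (SE, adjusted p = 0.0389 from limma). It lost the call without vector replicate 2 (0.189), MyoD-deleted replicate 1 (0.0941) or MyoD-deleted replicate 3 (0.163), without the variance trend (0.0763) and by rank (0.45), each an adjusted p from limma. Its summit lay in an exon of HOXB7.

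Both remaining regions lay in LINC02086, a long non-coding RNA gene in the stretch between HOXB9 and HOXB13. The one nearer HOXB9, chr17:48671569-48672275, was a low region, with pileups of 31, 19 and 18 fragments in vector and 32, 28 and 38 in MyoD-deleted libraries. Its heights were −1.39, −1.56 and −1.87 against −0.86, −1.24 and −0.84, so the groups did not overlap, and the difference was 0.63 ± 0.22 (SE, adjusted p = 0.0442 from limma). It was the 1 HOX region that also passed by the rank of fold enrichment (adjusted p = 0.0466), and its local background was at the smallest value, 1.00 times, in both groups. It lost the call without vector replicate 2 (0.0902), vector replicate 3 (0.163), MyoD-deleted replicate 1 (0.146) or MyoD-deleted replicate 3 (0.136), each an adjusted p from limma. The region nearer HOXB13, chr17:48678180-48679038, had heights of −0.72, −0.95 and −0.43 against −0.03, −0.14 and −0.33, again without overlap. Its difference was 0.54 ± 0.19 (SE, adjusted p = 0.0435 from limma, and 0.0534 by rank). The call was lost without vector replicate 2 (0.19), MyoD-deleted replicate 1 (0.167) or MyoD-deleted replicate 2 (0.11), each an adjusted p from limma. An E box, CAGGTG, was centred 19 bases from its summit.

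**Figure D4:**
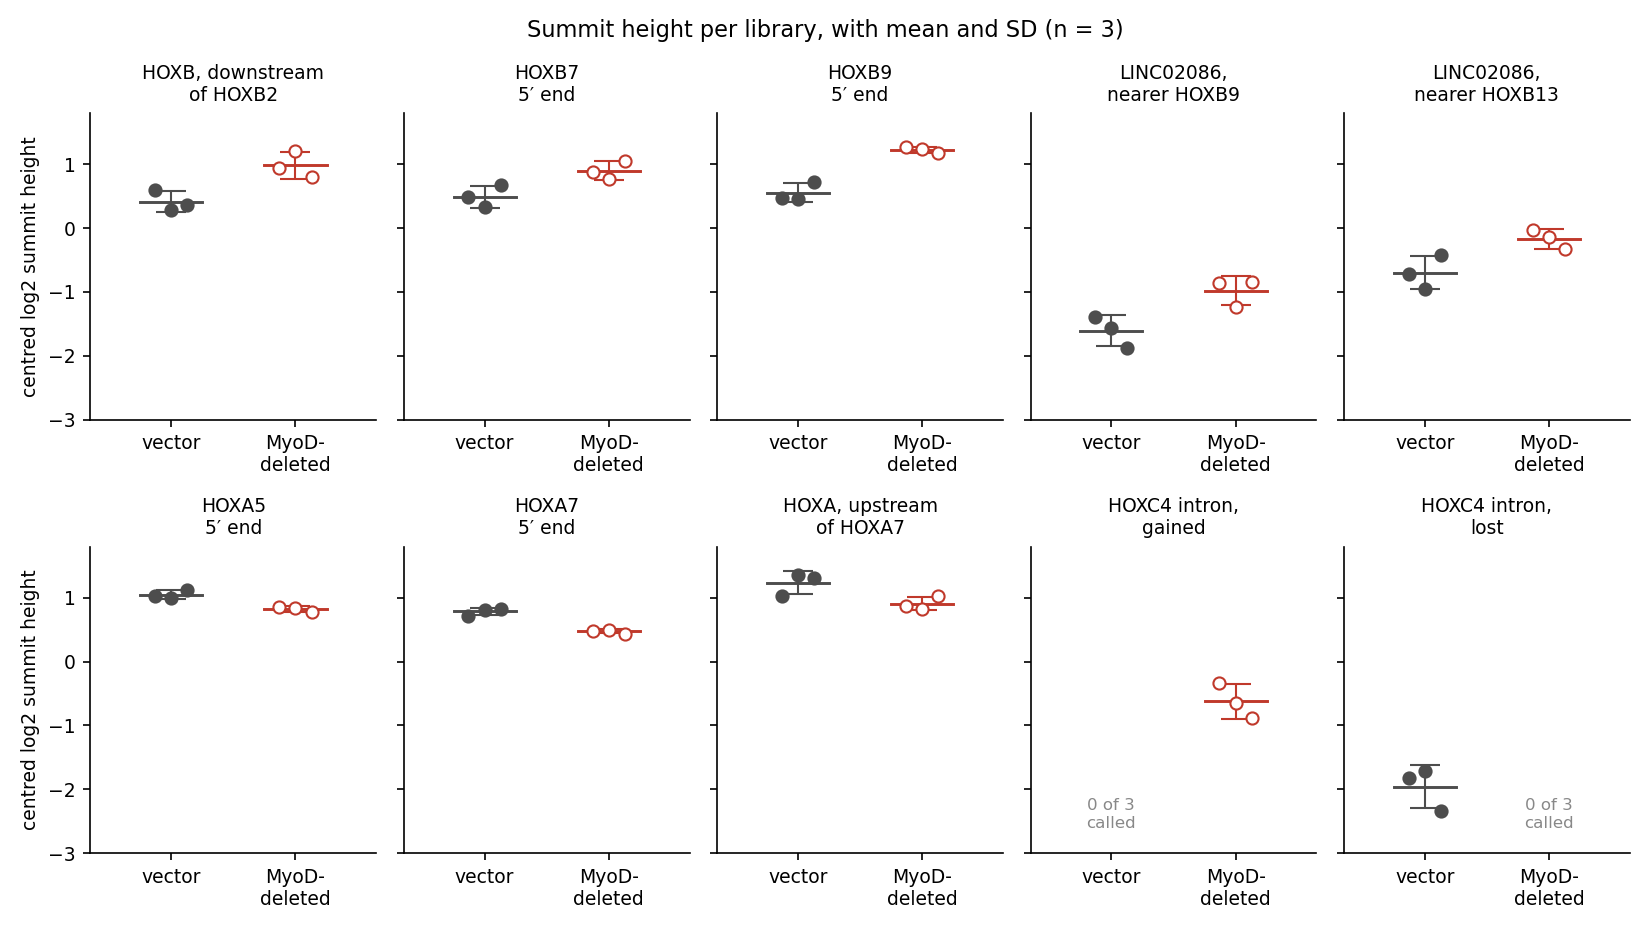
Centred log2 summit height (y axis) in each vector and MyoD-deleted library (x axis) at the 5 higher HOXB regions, 3 central HOXA regions and 2 HOXC4 intron regions, with the mean and SD of 3 libraries. The groups do not overlap in the first 8 panels, and in the last 2 panels 1 group had no called peak.

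Differences in height were mostly positive over the 48 regions. Outside the 5 called regions they ran from −0.465 to 0.405, where the called HOXB7 region had 0.404. Of the 48, with the called ones included, 41 (85.4%) had a difference above 0. Their median difference was 0.13, against 54.8% above 0 and a median of 0.035 among all regions called in 6. The share above 0 was 60% among regions within 1 kb of a 5′ end and 59.3% among regions with a CpG observed-to-expected ratio of at least 0.6. By cluster the counts were 6 of 9 in HOXA, 20 of 24 in HOXB, 8 of 8 in HOXC and 7 of 7 in HOXD. By the rank of fold enrichment only 27 of the 48 were above 0, with 5, 11, 5 and 6 in the same order, so that in HOXB the direction depended on the measure. The groups did not overlap in 15 regions with higher MyoD-deleted heights (31.2%, where 19.7% of all regions did so) and in 4 with lower ones (8.33%, where 18.1% did so).

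Of the 4 regions that were lower without overlap, 3 lay in the central part of HOXA, and none of them passed the test. The 1 region between them, inside HOXA3, had a difference of 0.17 with overlapping groups. At HOXA5, a central gene, the heights were 1.03, 0.99 and 1.13 in vector and 0.86, 0.84 and 0.77 in MyoD-deleted libraries, a difference of −0.22 ± 0.12 (SE, adjusted p = 0.185 from limma). HOXA7 had heights of 0.71, 0.81 and 0.83 against 0.48, 0.49 and 0.44, a difference of −0.31 ± 0.13 (SE, adjusted p = 0.0818 from limma). At the intergenic region upstream of HOXA7, chr7:27160517-27161433, they were 1.03, 1.35 and 1.31 against 0.87, 0.83 and 1.02, a difference of −0.33 ± 0.13 (SE, adjusted p = 0.0679 from limma). Without the centring these differences were −0.03, −0.12 and −0.13. At either end of that stretch the 5′ ends of HOXA4, HOXA10 and HOXA13 had differences of 0.00, 0.24 and 0.11, with adjusted p of 0.997, 0.259 and 0.611 from limma. The most negative difference of the 48 was at the 3′ end of HOXB1, −0.47 ± 0.24 (SE), where the groups overlapped (adjusted p = 0.182 from limma).

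Fold enrichment divides the summit by a background taken around it, and that background differed between the groups in HOXB. It was higher in MyoD-deleted libraries, relative to each library's smallest background, at 22 of 24 HOXB regions (91.7%, including 1 whose change rounds to 0), with a median change of 0.24 log2, against 62.5% and 0.045 among all regions called in 6. Between the outermost ends of HOXB this held for 17 of 18 regions, with a median of 0.28. In HOXA it was higher at 6 of 9 regions, in HOXC at 7 of 8 and in HOXD at 6 of 7, with medians of 0.047, 0.134 and 0.033. The part that the local background played in the difference between height and rank was not tested.

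**Figure D5:**
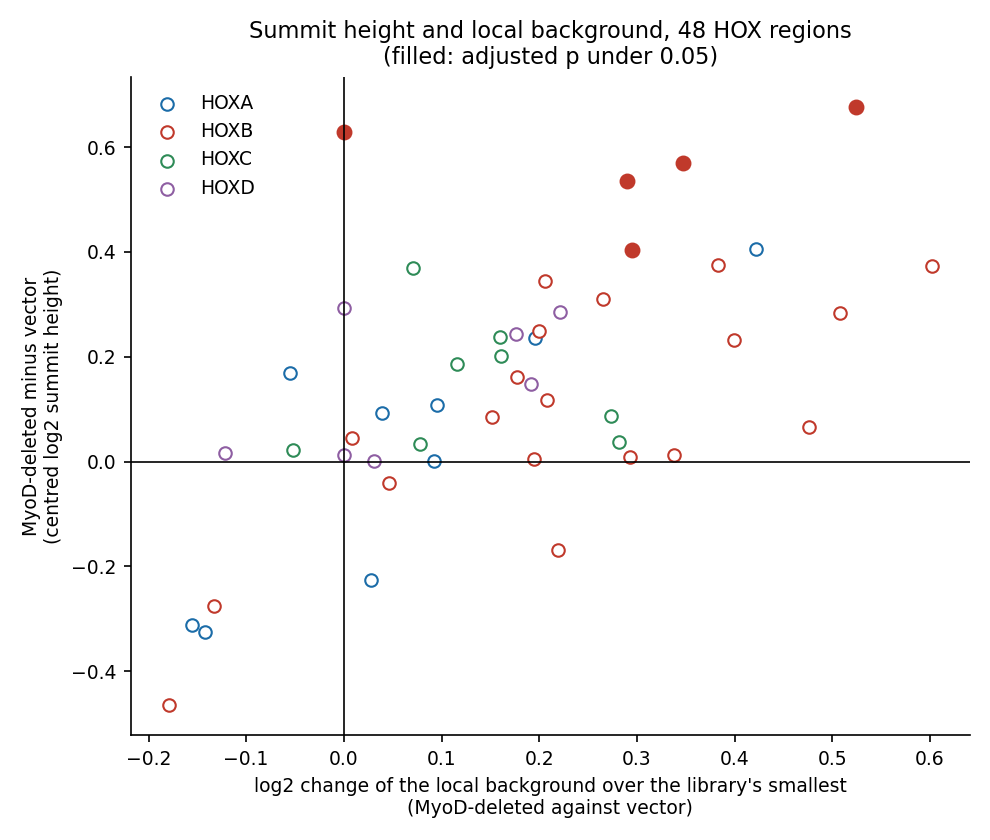
Difference in centred log2 summit height (y axis) against the log2 change of the local background over the library's smallest background (x axis), both MyoD-deleted against vector, for the 48 HOX regions coloured by cluster. Of the 5 filled HOXB regions (adjusted p under 0.05), 4 lie clearly to the right of 0, and the LINC02086 region nearer HOXB9 lies almost on the line.

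HOX regions were gained and lost in shares near those of all regions. The 4 gained regions made up 5.41% of the 74, where 4.56% of all regions were gained, and the lost region made up 1.35%, where 1.78% were lost. The highest gained region, chr12:54036748-54037222, lay in HOXC4, in an intron of its long transcript and 4026 bases downstream of the HOXC5 5′ end. Its pileups were 46, 42 and 37 fragments in the MyoD-deleted libraries, with heights of −0.33, −0.65 and −0.88, and 0 of 3 vector libraries called it. The AP-1 motif TGACTCA in the sequence above was centred 22 bases from its summit. Of the 4 gained HOX regions 1 held an AP-1 motif near its summit, against 33.7% of all gained, 13.3% of all lost and 22.6% of all regions.

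The other gained regions were weaker. At HOXA3, in an intron of the gene that overlaps an exon of HOXA-AS2, the region chr7:27122803-27123346 had pileups of 18, 18 and 27 fragments in the MyoD-deleted libraries and heights of −1.69, −1.87 and −1.33. At HOXB6, chr17:48603842-48604607, within 1 kb of the 5′ end, the pileups were 23, 25 and 19 fragments and the heights −1.33, −1.40 and −1.84. The weakest, chr7:27053089-27053457, lay 47.1 kb beyond the 3′ end of HOXA2 and had 10, 11 and 10 fragments. When each library was limited to as many peaks as the smallest one, or to peaks with a −log10 q of at least 5, the regions at HOXC4 and HOXA3 were still called in 3 of 3 MyoD-deleted and 0 of 3 vector libraries. The HOXB6 region was then called in 2 MyoD-deleted libraries and the one beyond HOXA2 in none.

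The lost region, chr12:54043345-54044190, also lay in the HOXC4 intron. Its pileups were 23, 17 and 13 fragments in vector libraries, with heights of −1.82, −1.72 and −2.34, and 0 of 3 MyoD-deleted libraries called it. Its E box CAGCTG, in capitals above, was centred 26 bases from the summit, and such an E box stood near the summit of 54.8% of all lost and 13.2% of all gained regions. With a −log10 q of at least 5 it was called in 2 vector libraries, so that it no longer counted as lost. Next to the gained HOXC4 intron region, the region at the 5′ end of HOXC5 had heights of −1.25, −1.05 and −0.87 in the vector libraries. Its height was −1.13 in the 1 MyoD-deleted library that called it.

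The HOX regions were rich in G and C. The 48 regions called in all 6 had a median of 60.6% G and C and a CpG observed-to-expected ratio of 0.68, against 51.1% and 0.26 for all such regions. HOXD regions were the richest, with medians of 70.2% and 0.87, and HOXB regions had 59.3% and 0.62. Within 100 bases of the summit, the E box CAGCTG was found in 14 of the 74 HOX regions (18.9%, against 25.1% of all regions) and CAGGTG, read on both strands, in 6 (8.11%, against 15.9%). The AP-1 motif TGANTCA was in 10 (13.5%, against 22.6%), the core motif of CTCF in 5 (6.76%, against 5.26%) and the HOX and PBX motif TGATTNAT in 1 (1.35%, against 3.66%), where it overlapped an AP-1 match. By cluster the CAGCTG matches were 9 in HOXB, 3 in HOXC, 1 in HOXA and 1 in HOXD. A match describes the letters in the window and not a bound site.

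Genes that act on the HOX clusters were mostly open and mostly did not pass the test at their 5′ ends. Over all annotated genes, 62.5% of 5′ ends had a region called in all 6 libraries, and 3.53% of such regions were higher. Of 14 Polycomb genes all had such a region and 1 was higher, SUZ12, a core subunit of the complex that methylates histone H3, at 0.31 ± 0.10 (SE, adjusted p = 0.023 from limma). The 7 Trithorax genes, among them KMT2A, all had a region, and the lowest adjusted p from limma was 0.0924, at PSIP1 with a difference of −0.32.

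Of 9 upstream regulators of the clusters, 3 had a region called in all 6 libraries, and 1 of them, RARG, a retinoic acid receptor, was higher. Its heights were 0.91, 0.15 and 0.67 in vector and 1.53, 1.66 and 1.60 in MyoD-deleted libraries, which did not overlap, with a difference of 1.02 ± 0.16 (SE, adjusted p = 0.00012 from limma). CYP26B1, which breaks down retinoic acid, had a difference of −0.46 ± 0.17 (SE) that did not pass (adjusted p = 0.0559 from limma). The CDX genes, RARA and CYP26A1 had no region, and RARB had one in 1 MyoD-deleted library. Of 8 genes that neighbour the clusters, 4 had a region called in all 6 libraries, with differences between −0.04 and 0.16 and a lowest adjusted p of 0.325 from limma, at SKAP2.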

How the data were processed

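ATAC-seq peaks of RH30 cells, from 3 vector and 3 MyoD-deleted libraries, were used as grouped by the sample labels. Alignment by the authors was to hg38 (GRCh38) with Rsubread, followed by selection of proper pairs and, library by library, by MACS2 (version not given in the sources used here). The deposited score is the −log10 q times 10, the fold enrichment deposited with it is the ratio of summit pileup and local background, and the deposited −log10 p and −log10 q belong to the summit. None of these is normalized between libraries.

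Pileup and background were recovered from the deposited fold enrichment and −log10 p under the Poisson model of the peak caller. The files give no read totals, so read depth and counting error are unknown, and precision was taken from the spread of 3 libraries. Overlapping or touching peaks were merged into regions (the same number as with bedtools 2.31.1). Heights of regions called in all 6 libraries were compared with limma 3.58.1 (lmFit, eBayes with trend, two-sided, no block), with Benjamini-Hochberg adjustment over 47885 regions. The DESeq2 test on reads that the study's methods describe could not be run on peak lists. Without the centring, the median region was 0.192 log2 higher in MyoD-deleted libraries. Genes and 5′ ends (MANE Select) were from GENCODE version 44, with positions counted from 1.

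The members, gene lists and tests were chosen with earlier results of these data known. Regions named are the called, gained and lost ones, those called with 1 library left out, and the highest in each cluster. Neighbours chosen after their values were seen are named too. Of 39 HOX genes, 1 is not reported here, nor are 1 region that met the rule and 1 of the gene lists, so the HOXA and flank counts are without that region. Alternatives were the rank of fold enrichment, no centring, a replicate block, no variance trend, regions in at least 2 libraries of each group, a −log10 q of at least 5, equal peak numbers, 50% coverage, no flanks, and each library left out. On simulated data for this comparison (200 of 47885 regions shifted), 53% were called at a shift of 1.0 log2 and 0 at 0.6. In the real data 24.2% of regions differed, far more than were shifted. The adjustment depends on that share, so these rates do not describe the power of the test here. Python 3.11.15 and R 4.3.3 were used.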

Additional observations from a re-analysis of the deposited data

How the results depend on the processing

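Of the 48 HOX regions, 5 were higher in MyoD-deleted libraries, 1 by the rank of fold enrichment, 16 without centring, 3 with the replicate block, and 2 to 6 with single libraries left out. None was lower in the main comparison, and 0 to 1 were with single libraries left out. Differences above 0, a count chosen after seeing the data, numbered 41 by height, 27 by rank and 33 to 39 with single libraries left out. Gained regions numbered 2 with equal numbers of peaks and 2 with a −log10 q of at least 5, against 4 (4 to 6 with single libraries left out). Lost regions numbered 0 with that −log10 q and 0 with 50% coverage, against 1 (1 to 3 with single libraries left out). Among all 47885 regions, 5438 were higher and 6149 lower, against 1973 and 2234 by rank and 11821 and 3843 without centring, which is 46.9%, 46.9% and 75.5% higher, and 3584 to 6523 were higher and 4522 to 6843 lower with single libraries left out. The counts under the other alternatives stayed within 1.5 times of these, and the directions of the 5 called regions did not reverse in any alternative run. HOXB7 lost its call without the variance trend. The cause was not tested. Correlations of deviations between same-numbered libraries were −0.04, −0.203 and 0.092, and those between differently numbered ones ran from −0.232 to 0.26. Whether same-numbered libraries shared conditions was not tested. With the block the 2 LINC02086 regions had adjusted p of 0.0616 and 0.0668 from limma. The deposited peaks carry no read counts, which limits small differences at low regions, and 3 libraries a group may share technical conditions that the labels do not give.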
